A study of Rattus norvegicus with 9 samples.

Results

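The genes described here are 40 genes of the cell cycle and of DNA replication, measured in rat liver on 9 Affymetrix expression arrays of 1 colour. A gene was taken up where the platform annotation gave a probe set exactly 1 of the 40 symbols, and where several probe sets did, the one with the highest mean log2 signal stood for the gene. By this rule 37 of the 40 genes were measured. No probe set carried the symbol Cdc6 or Gins2 in that annotation, and the 2 probe sets for Rrm2 named a second gene as well, so these 3 genes have no value here. The 9 arrays came from 3 groups called drug, model and control, each with 3 arrays from separate rats drawn at random out of 12 in the group and 36 in the study. All rats were Wistar, labelled male and weighing 180 to 220 g, and their age was not given. The drug group is tied to something called 7-P in the title of the study. The nature of 7-P, and how the model rats were treated, are not given in the sources used here.

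A cell enters division when D-type cyclins with Cdk4, and then cyclin E with Cdk2, release E2F transcription factors from the retinoblastoma proteins, and E2F switches on genes for replication. The minichromosome maintenance (MCM) helicase is loaded at origins before S phase, the Pcna clamp and its loader hold the polymerases on the DNA, and a separate wave of genes for the kinases, motors and checkpoint proteins of mitosis follows in G2. Most hepatocytes of an adult liver rest outside the cycle and re-enter it after loss of tissue or injury, while other liver cells and arriving blood cells can divide as well.

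Promoters of 31 of the 40 genes were found in the RefSeq promoter table of the rat build GRCr8, and 5 are printed because their genes recur in the results below. Each line gives the 250 bases before the annotated start of the gene, 5′ to 3′ on the gene's own strand, at chr19:13488563-13488812 on the plus strand for Mcm5, chr12:22163179-22163428 on the minus strand for Mcm7, chr20:19265043-19265292 on the plus strand for Cdk1, chr10:84473094-84473343 on the minus strand for Top2a and chr7:1721879-1722128 on the minus strand for Cdk2. Capitals mark matches on either strand to an E2F site (TTTGGCGC, TTTCGCGC, TTTCCCGC or TTTGCCGC), to the cell cycle homology region known as CHR (TTTGAA or TTCGAA) and to the CCAAT box.
Mcm5: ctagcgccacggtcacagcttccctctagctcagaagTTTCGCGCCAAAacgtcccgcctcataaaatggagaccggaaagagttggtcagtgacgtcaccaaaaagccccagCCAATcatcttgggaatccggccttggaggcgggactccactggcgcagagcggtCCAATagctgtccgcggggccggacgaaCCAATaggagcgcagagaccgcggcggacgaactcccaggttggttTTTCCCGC
Mcm7: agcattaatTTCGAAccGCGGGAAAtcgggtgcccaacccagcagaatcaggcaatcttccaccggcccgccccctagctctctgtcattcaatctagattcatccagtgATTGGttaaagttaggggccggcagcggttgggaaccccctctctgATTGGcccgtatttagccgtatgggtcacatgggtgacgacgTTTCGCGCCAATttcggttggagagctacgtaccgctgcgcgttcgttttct
Cdk1: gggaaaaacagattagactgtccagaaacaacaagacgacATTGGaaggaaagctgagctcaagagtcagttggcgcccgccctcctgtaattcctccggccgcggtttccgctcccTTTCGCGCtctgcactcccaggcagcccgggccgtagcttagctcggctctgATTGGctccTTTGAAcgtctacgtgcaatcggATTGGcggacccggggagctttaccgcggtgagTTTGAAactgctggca
Top2a: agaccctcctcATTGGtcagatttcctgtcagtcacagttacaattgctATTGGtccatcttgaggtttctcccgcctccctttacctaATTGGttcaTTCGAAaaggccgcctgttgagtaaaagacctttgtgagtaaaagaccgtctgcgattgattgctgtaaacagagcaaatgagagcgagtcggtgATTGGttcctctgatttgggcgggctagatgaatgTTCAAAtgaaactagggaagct
Cdk2: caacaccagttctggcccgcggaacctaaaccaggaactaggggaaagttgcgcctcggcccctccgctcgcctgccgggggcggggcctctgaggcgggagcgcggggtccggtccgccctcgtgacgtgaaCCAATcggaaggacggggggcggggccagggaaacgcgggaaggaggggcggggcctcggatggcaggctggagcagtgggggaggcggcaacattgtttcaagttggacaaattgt
Matches share 4 bases in the Mcm5 promoter and 1 base in the Mcm7 promoter, where 1 run of capitals holds a pair of motifs.

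An E2F site stood in 6 of the 31 promoters, which is 19.4%, against 1.73% of all 33469 promoters of the same length in the table. The 6 belong to Mcm2, Mcm5, Mcm6 and Mcm7, which encode subunits of the helicase, to Tyms, the enzyme that makes thymidylate, and to Cdk1, the kinase that drives mitosis. The CHR motif stood in 11 of the 31 promoters (35.5%), against 17.4% of all promoters, and the CCAAT box in 21 (67.7%), against 34% of all promoters. Among the promoters printed, Top2a holds both the CHR motif and CCAAT boxes without an E2F match, Cdk1 and Mcm7 hold all 3 motifs, and Cdk2 holds 1 CCAAT box. A match is a description of letters in this window, and no binding was measured.

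Most of the 37 genes gave weak signals in these livers. Signals were compared on the log2 scale after quantile normalization, which gives all arrays the same distribution, and a probe set was tested where its mean lay at or above the 40th percentile of all probe sets, a log2 signal of 2.82. The filter was passed by 26 of the 37 genes, against 60% of all 31042 probe sets. The other 11 genes lay under it, and 5 of the 26 (Ccne1, Mcm3, Cdk1, Aurka and Aurkb) had at least 1 group mean under it. As a second reading of background, 24 genes of other tissues had mean log2 signals of -0.85 to 4.31, with a median of 1.57. Only 9 of the 37 genes lay above all 24, and 18 lay above all but the highest, Gfap, which rat stellate cells can express. Signals of different probe sets cannot be set against each other as amounts of RNA, so these counts describe distance from background alone.

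**Figure D1:**
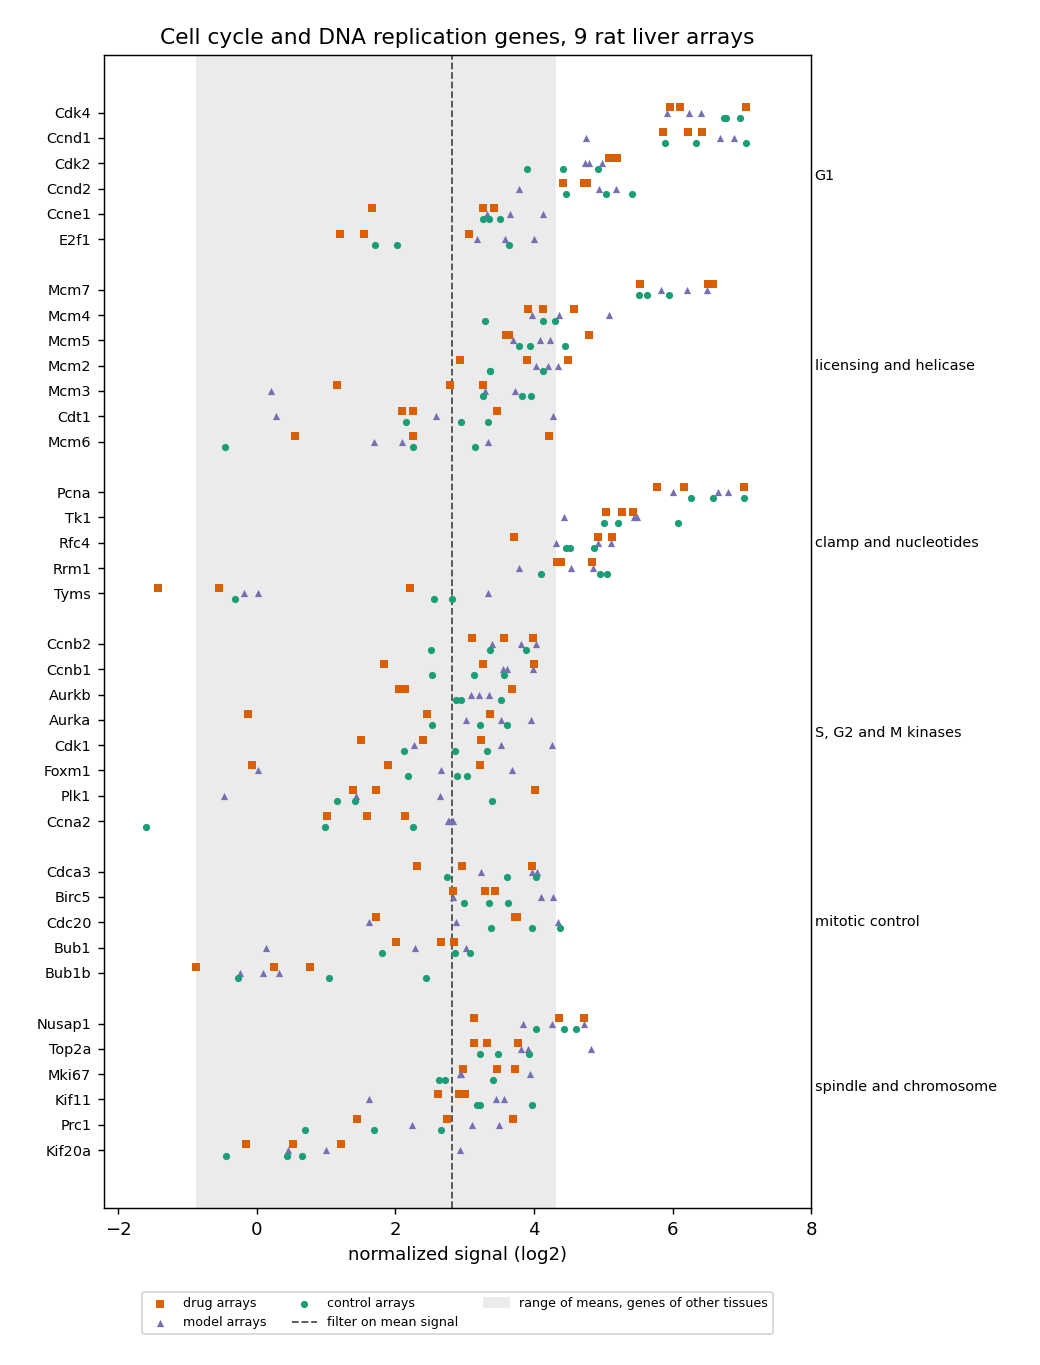
Normalized log2 signal (horizontal axis) of the 37 measured genes on each of the 9 arrays, grouped by role, with squares for drug, triangles for model and circles for control arrays. The dashed line is the filter at 2.82 and the shaded band spans the means of the 24 genes of other tissues, -0.85 to 4.31. Genes of G1 and of the replication clamp and nucleotide supply lie to the right of the band more often than mitotic genes.

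The distance from background differed by the role of the genes. Above all 24 genes of other tissues lay 4 of the 6 genes of G1 (Ccnd1, Ccnd2, Cdk4 and Cdk2), 4 of the 5 measured genes of the clamp and nucleotide supply (Pcna, Rfc4, Rrm1 and Tk1) and 1 of the 7 measured genes of origin licensing and helicase (Mcm7). None of the 8 kinase, cyclin and regulator genes of S, G2 and M phase did, nor any of the 5 genes of mitotic control or of the 6 genes of spindle and chromosomes, in which Mki67 and Top2a, the usual markers of dividing cells, belong. Gfap alone set this limit. Above all the other genes of other tissues lay also Mcm2, Mcm4 and Mcm5, and Ccnb2, Cdc20, Birc5, Cdca3, Nusap1 and Top2a of the mitotic roles. The median pooled SD between arrays of a group was 0.49 among the 9 brightest genes, 0.52 among the 26 past the filter and 1.18 among the 11 under it.

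Facts of the arrays bear on all results. The transcripts of the sex-linked genes Xist and Eif2s3y split the arrays against their common label male: Xist gave 3.05 on drug array 3 and 2.65 on control array 2, against 8.06 to 10.89 on the other 7 arrays, and Eif2s3y gave 7.17 and 6.99 on that pair, against -2.85 to 2.53 elsewhere. The pattern of these 2 arrays goes with the label, and that of the other 7, all model arrays among them, goes against it. The cause was not tested. Values without these 2 arrays are given beside the summaries of the set and beside most of the genes described in full. The ratio of the 3' to the 5' signal of Gapdh, which rises as less of the 5' end of the RNA is measured, was 1.31 to 9.20 in drug arrays, 4.09 to 12.7 in model arrays and 1.52 to 3.14 in control arrays, so that all model arrays lay above all control arrays. In each group array 1 had the lowest ratio, with 1.31 for drug, 4.09 for model and 1.52 for control. All 10 hepatocyte markers passed the filter and their summed signal was 37286 to 39160 in drug, 35942 to 40755 in model and 37770 to 38584 in control arrays. In whole liver, fewer cells of a type and less RNA per cell cannot be told apart.

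No gene of the set passed the test in any comparison. Differences were tested with limma over all 18625 probe sets past the filter, with the threshold set at an adjusted p (Benjamini-Hochberg) under 0.05. That threshold was passed by 0 probe sets (0%) for model against control, 0 (0%) for drug against model, 0 (0%) for drug against control, and by 0 (0%) in the F test for any difference between the 3 groups. At an unadjusted p under 0.05 stood 2245 probe sets for model against control, 610 for drug against model, 1345 for drug against control and 1387 (7.45%) in the F test. With 3 arrays in a group, the number of arrays limits the precision: the 95% interval of a difference reached 1.02 log2 units to each side for the median gene of the set, and 0.67 to 2.11 over the 26 genes. A difference that missed the threshold is therefore not shown to be absent.

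In model against control, livers of the model group had slightly higher signals for 15 of the 26 tested genes and lower signals for 11, and none passed the test. The unadjusted p was under 0.05 for 0 of the 26, against 12.1% of all probe sets (6.51% higher and 5.54% lower), and the lowest limma adjusted p among them was 0.427. Their differences ran from -1.28 to 0.64, with a median of 0.23, against 0.02 over all probe sets tested. Without normalization the median was -0.089, when that of all probe sets was -0.40, with a term for the Gapdh ratio it was -0.060, and over the 9 genes past a 60th percentile filter it was -0.31. Without control array 2 and drug array 3, 17 genes were higher and 8 lower, and the median was 0.17. For 20 of the 26 genes the difference was under 1.5-fold, as it was for 64.6% of all probe sets.

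In drug against model, 11 of the 26 genes were higher and 15 lower, and none passed. The unadjusted p was under 0.05 for 0 genes, against 3.28% of all probe sets (1.47% higher and 1.8% lower), and every limma adjusted p was at least 0.998. The differences ran from -1.60 to 0.28, with a median of -0.18, against -0.02 over all probe sets. The median was 0.061 over the 9 genes past a 60th percentile filter. Without control array 2 and drug array 3, 9 genes were higher and 16 lower, with a median of -0.074. The difference was under 1.5-fold for 19 genes, against 80.6% of all probe sets.

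In drug against control, 6 of the 26 genes were higher and 20 lower, with differences from -1.27 to 0.70 and a median of -0.22, against -0.02 over all probe sets. The unadjusted p was under 0.05 for 1 gene, Cdk2, against 7.22% of all probe sets (4.19% higher and 3.03% lower), and the lowest limma adjusted p was 0.683. Without control array 2 and drug array 3, 13 genes were higher and 12 lower, and the median was 0.057. The difference was under 1.5-fold for 20 genes, against 72.3% of all probe sets. The 3 comparisons share their groups pairwise, so they do not give independent counts of direction.

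**Figure D2:**
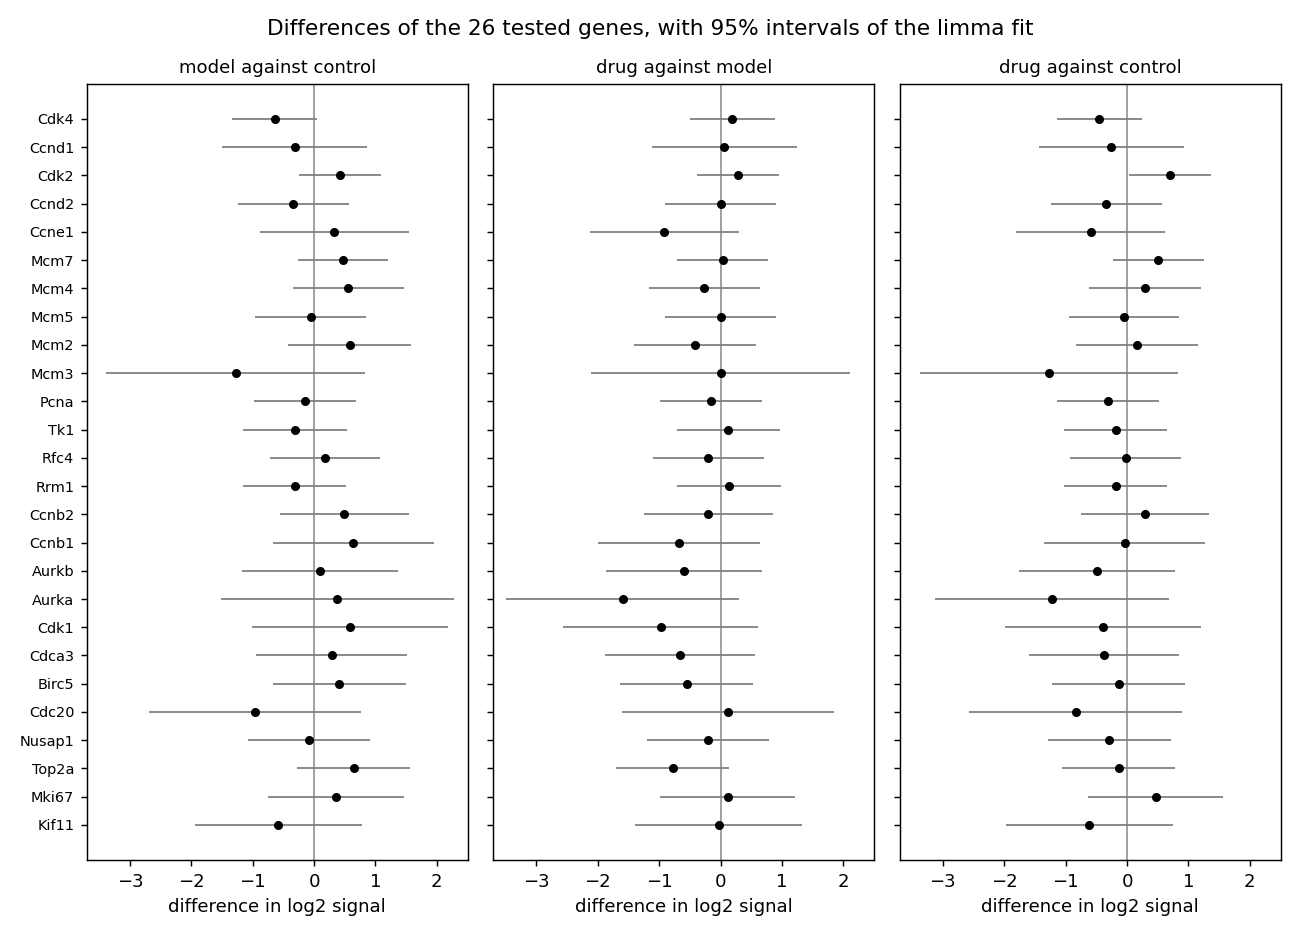
Difference in log2 signal (horizontal axis) of the 26 tested genes, with 1 panel each for model against control, drug against model and drug against control, with points for the fitted difference and lines for its 95% interval. The interval for Cdk2 in drug against control, 0.03 to 1.37, is the only one that does not cross 0.

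Genes of G1 include the only one of the set at an unadjusted p under 0.05. Cdk2, the partner kinase of cyclin E, had log2 signals of 5.08, 5.20 and 5.08 on drug arrays, 4.98, 4.80 and 4.73 on model arrays and 4.93, 3.91 and 4.42 on control arrays. All 3 drug arrays lay above all model and all control arrays, and the model and control arrays overlapped. The difference in drug against control was 0.70 (SE 0.30, 95% interval 0.03 to 1.37), a 1.63-fold higher signal, with a limma unadjusted p of 0.0422 and an adjusted p of 0.683. In drug against model it was 0.28 (95% interval -0.39 to 0.95, adjusted p = 0.998). Groups were free of overlap with drug higher for this 1 gene in each of these comparisons, against 6.05% of all probe sets in drug against control and 3.35% in drug against model.

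The Cdk2 difference in drug against control was 0.42 to 0.95 over 23 other ways of processing, and its unadjusted p stayed under 0.05 in 11 of them. Among the fits with 1 array left out, it did so only without control array 1. The limma unadjusted p ran from 0.0109 to 0.168 over those fits. The difference was 0.44 without control array 2, 0.95 without control array 1, and 0.47 (limma unadjusted p = 0.220) without control array 2 and drug array 3 together, when the difference in drug against model was 0.30. A second probe set of Cdk2 gave 0.92 in drug against model, 0.72 for drug against control and -0.20 in model against control, where the first gave 0.42, so the probe sets differ in sign in that comparison.

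Cdk4, the kinase that works with D-type cyclins, had signals of 6.41, 5.92 and 6.24 on model arrays, against 6.97, 6.77 and 6.74 on control arrays, and 7.06, 6.11 and 5.97 on drug arrays. All model arrays lay below all control arrays, and the drug arrays spread over both, with drug array 1 above every other. The difference in model against control was -0.64 (SE 0.31, 95% interval -1.33 to 0.05), a 1.56-fold lower signal, with a limma unadjusted p of 0.0661 and an adjusted p of 0.427. It was the only gene of the set whose groups did not overlap in this comparison with model lower, where 10.9% of all probe sets did so, and no gene did so with model higher, against 11.8%. With a term for the Gapdh ratio, which was higher on all model arrays than on any control array, the difference was -0.080 (limma unadjusted p = 0.742), and without control array 2 and drug array 3 it was -0.67.

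The cyclins of G1 varied within groups as much as between them. Ccnd1, which encodes cyclin D1, had signals of 6.42, 6.23 and 5.87 on drug arrays, 4.76, 6.89 and 6.68 on model arrays and 5.89, 7.06 and 6.34 on control arrays. Model array 1 stood apart as the lowest of all 9, and the 3 groups overlapped. Its 3 probe sets gave the same sign in each comparison, with -0.31 to -0.44 for model against control, 0.01 to 0.20 for drug against model, and -0.24 to -0.29 for drug against control. Ccnd2, for cyclin D2, averaged 4.64 ± 0.19 on drug, 4.64 ± 0.74 on model and 4.97 ± 0.48 on control arrays (SD, n = 3 each here and below). Ccne1, for cyclin E1, averaged 2.79 ± 0.98 on drug, 3.70 ± 0.41 on model and 3.38 ± 0.13 on control arrays, with the drug mean under the filter. E2f1, which encodes the factor that starts the replication program, lay under the filter and was not tested, with 1.6, 3.1 and 1.2 on drug arrays, 3.2, 4.0 and 3.6 on model arrays and 1.7, 2.0 and 3.6 on control arrays. All its model arrays lay above all its drug arrays, as for 4.7% of the probe sets tested, at levels within the range of genes of other tissues.

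**Figure D3:**
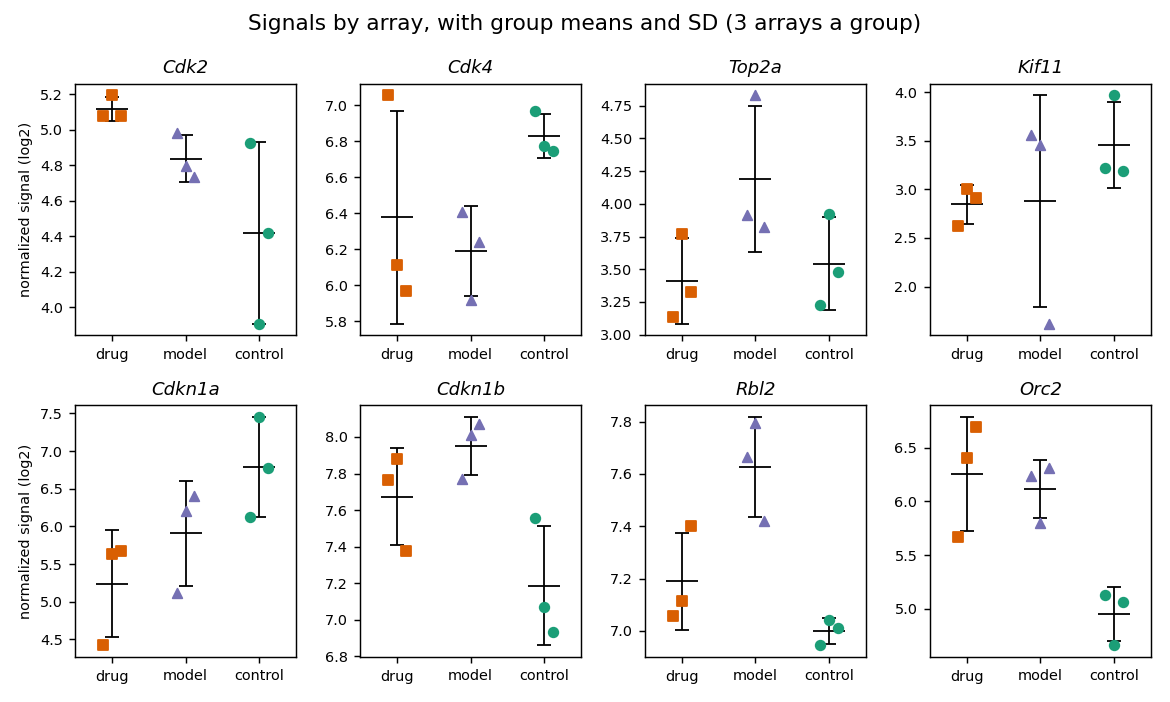
Normalized log2 signal (vertical axis, different in each panel) of 4 genes of the set (Cdk2, Cdk4, Top2a and Kif11) and of 4 regulators of the cycle (Cdkn1a, Cdkn1b, Rbl2 and Orc2) on each array, with the group mean as a bar and the SD over 3 arrays as whiskers. The drug arrays of Cdk2 lie between 5.08 and 5.20, above every model and control array.

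Among the genes that license and open origins, Mcm7 alone lay above all 24 genes of other tissues. Mcm2, Mcm4 and Mcm5 lay above all of them but Gfap. Mcm7, a helicase subunit, had signals of 5.53, 6.59 and 6.51 on drug arrays, 5.83, 6.49 and 6.20 on model arrays and 5.95, 5.52 and 5.63 on control arrays. The groups overlapped, with drug array 1 near the control level, and the differences were 0.48 for model against control, 0.03 for drug against model, and 0.51 for drug against control (95% interval -0.23 to 1.25). Without drug array 1, Mcm7 and Cdk4 were the 2 genes of the set at an unadjusted p under 0.05 in drug against control, as were 20.1% of all probe sets in that fit.

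The other MCM subunits gave differences in both directions. Mcm2 averaged 3.77 ± 0.78 on drug, 4.19 ± 0.16 on model and 3.62 ± 0.44 on control arrays, and Mcm4 averaged 4.21 ± 0.33, 4.47 ± 0.57 and 3.91 ± 0.54 on drug, model and control arrays in that order. Mcm5, whose promoter holds 3 E2F matches, was level at 4.01 ± 0.67 on drug, 4.01 ± 0.27 on model and 4.06 ± 0.34 on control arrays. Mcm3 had the lowest difference of the set in model against control, -1.28 (95% interval -3.38 to 0.83), from signals of 0.21, 3.29 and 3.72 on model arrays, against 3.95, 3.83 and 3.27 on control arrays. Model array 1 was far below the other arrays, drug array 1 was next with 1.17, and its mean over all arrays lay just past the filter, at 2.83. Mcm3 passed through its control arrays alone, with means of 2.41 on drug, 2.41 on model and 3.68 on control arrays. The sign of its difference is therefore no support, and the same holds for -1.27 in drug against control, the lowest of the set there. Mcm6 and Cdt1, which encodes the loader of the helicase, lay under the filter, with mean signals of 2.12 and 2.60 and arrays from -0.46 to 4.22 and from 0.28 to 4.27.

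The genes of the clamp and of nucleotide supply had no comparison in which groups were free of overlap. Pcna, the clamp that also serves DNA repair, had signals of 7.0, 5.8 and 6.2 on drug arrays, 6.8, 6.7 and 6.0 on model arrays and 7.0, 6.3 and 6.6 on control arrays. The 3 groups overlapped throughout, and its differences were -0.14 for model against control, -0.16 for drug against model, and -0.30 for drug against control, with intervals that reach 0.83 to either side. Rfc4, a subunit of the clamp loader, averaged 4.59 ± 0.77 on drug, 4.79 ± 0.42 on model and 4.61 ± 0.22 on control arrays. Rrm1, the large subunit of ribonucleotide reductase, averaged 4.52 ± 0.27, 4.39 ± 0.55 and 4.71 ± 0.52 on drug, model and control arrays. Tk1, the thymidine kinase of the salvage route, averaged 5.25 ± 0.19 on drug, 5.12 ± 0.60 on model and 5.43 ± 0.57 on control arrays. Its probe sets gave -0.18, -0.13 and 0.90 in drug against control, the last of them under the filter. All 4 genes, by the probe set that stood for each, had slightly lower signals in drug against control, by 0.02 to 0.30, and none passed. With a term for the Gapdh ratio 3 of the 4 were higher, and likewise without control array 2 and drug array 3. Tyms lay under the filter, with arrays from -1.43 to 3.34.

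The genes that drive S, G2 and M phase lay near background, and none passed the test. Of all 8 measured genes, taken without a filter, 6 had higher and 2 lower mean signals in model against control, with a median difference of 0.44, and 1 had a higher and 7 a lower mean signal in drug against model, with a median difference of -0.64. Plk1 and Foxm1 were the 2 lower in model against control, and Plk1 was the 1 higher in drug against model. Both comparisons use the same 3 model arrays. The filter was passed by Ccnb1 and Ccnb2, the B-type cyclins, Cdk1, their partner kinase, and the mitotic kinases Aurka and Aurkb, and the groups overlapped for each of these 5. Cdk1 passed through its model arrays alone, with means of 2.38 on drug, 3.36 on model and 2.77 on control arrays, and the drug means of Aurka and Aurkb, 1.90 and 2.63, lay under the filter, so a count of direction over these 5 genes is no support for a difference.

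Single genes of that group show how wide the spread was. Aurka had the lowest difference of the set in drug against model, -1.60 (95% interval -3.50 to 0.31), from signals of -0.12, 3.37 and 2.46 on drug arrays, against 3.95, 3.02 and 3.53 on model arrays. Drug array 1 was far below all others, and drug array 2 lay within the range of the model arrays. Cdk1 had signals of 3.2, 1.5 and 2.4 on drug arrays, 3.5, 4.3 and 2.3 on model arrays and 2.1, 3.3 and 2.9 on control arrays, so the groups overlapped. Its mean of 2.83 lay just past the filter. Ccnb1 averaged 3.04 ± 1.10 on drug, 3.72 ± 0.23 on model and 3.08 ± 0.52 on control arrays, Ccnb2 averaged 3.55 ± 0.44, 3.75 ± 0.32 and 3.26 ± 0.70 in the same order, and Aurkb averaged 2.63 ± 0.92, 3.22 ± 0.13 and 3.12 ± 0.36.

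Under the filter lay Ccna2, Plk1 and Foxm1. Ccna2, for cyclin A2, which acts in S phase and G2, had signals of 1.60, 2.14 and 1.02 on drug arrays, 2.76, 2.83 and 2.78 on model arrays and -1.59, 2.25 and 0.99 on control arrays. Its model arrays lay above all others and close together, at a level where genes of other tissues are also found. Of the probe sets tested, 11.8% had all model arrays above all control arrays, and 4.7% had all drug arrays below all model arrays. Ccna2 was at an unadjusted p under 0.05 in model against control when no filter was set, as were 9.64% of all probe sets in that fit. Plk1, a kinase of mitotic entry, and Foxm1, the factor that switches on many G2 genes, ranged from -0.47 to 4.02 and from -0.06 to 3.69 with no group apart.

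Among the genes of mitotic control, Birc5 (survivin), Cdca3 and Cdc20 passed the filter. Birc5 averaged 3.19 ± 0.32 on drug, 3.74 ± 0.78 on model and 3.32 ± 0.32 on control arrays, and Cdca3 averaged 3.09 ± 0.83, 3.75 ± 0.45 and 3.46 ± 0.66 in that order. Cdc20, which activates the anaphase-promoting complex, averaged 3.07 ± 1.16 on drug, 2.95 ± 1.36 on model and 3.91 ± 0.50 on control arrays. Its other 4 probe sets lay under the filter, and their differences in model against control ran from -1.30 to 1.80. The checkpoint kinase genes Bub1 and Bub1b lay under the filter, with mean signals of 2.30 and 0.39.

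Of the genes of spindle and chromosomes, Top2a, the topoisomerase that untangles sister chromatids, had signals of 3.13, 3.77 and 3.33 on drug arrays, 3.91, 4.83 and 3.82 on model arrays and 3.23, 3.92 and 3.48 on control arrays. All drug arrays lay below all model arrays, the nearest pair by a small margin, and model array 2 stood highest. The difference in drug against model was -0.78 (SE 0.41, 95% interval -1.70 to 0.15), a 1.71-fold lower signal, with a limma unadjusted p of 0.0901 and an adjusted p of 0.998. Lower signals without overlap in that comparison were shared by 4.7% of all probe sets. Without model array 2 the difference was -0.46, and without control array 2 and drug array 3 it was -0.74. A second probe set of Top2a lay under the filter. It gave -0.49 in drug against model, the same sign as the first, and -1.2 in model against control, where the first gave 0.64.

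Kif11, the motor that pushes spindle poles apart, had signals of 2.62, 3.00 and 2.91 on drug arrays, against 3.23, 3.97 and 3.19 on control arrays, and 3.56, 3.45 and 1.62 on model arrays. All drug arrays lay below all control arrays, as they did for 6.49% of all probe sets, and the model arrays lay on both sides. The difference in drug against control was -0.61 (SE 0.61, 95% interval -1.97 to 0.74, limma adjusted p = 0.793). It was -0.36 without control array 2 and -0.39 without control array 2 and drug array 3. A second probe set of Kif11 lay under the filter and had the opposite sign, with 0.58 in drug against control, and 1.18 in model against control, where the first gave -0.58. Mki67, the antigen that marks cycling cells, had signals of 2.98, 3.72 and 3.47 on drug arrays, 2.95, 3.94 and 2.94 on model arrays and 2.72, 2.63 and 3.42 on control arrays. The groups overlapped, and its differences were 0.35 for model against control, 0.11 for drug against model, and 0.47 for drug against control (95% interval -0.64 to 1.57). Nusap1, which binds spindle microtubules, averaged 4.07 ± 0.84 on drug, 4.27 ± 0.44 on model and 4.36 ± 0.30 on control arrays. Prc1 and Kif20a, which act at the spindle midzone, lay under the filter, with means of 2.42 and 0.74.

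The summed linear signal of the 12 tested genes of S, G2, M, mitotic control and spindle was 101 to 137 on drug arrays, 131 to 188 on model arrays and 123 to 140 on control arrays. The sums of each pair of groups overlapped. Cdk1 passed the filter through its model arrays alone and the drug means of Aurka and Aurkb lay under it, so these sums are no support for a difference. Markers of other cells of liver and blood differed between groups or single arrays. The summed signal of 7 of 9 endothelial markers was 591 to 680 on drug, 833 to 1183 on model and 657 to 810 on control arrays, so that all model arrays lay above all others. Free of overlap were 3 of the 7 genes with model higher than control, against 11.8% of all probe sets, and 3 with drug lower than model, against 4.7%. The sums of 8 of 8 stellate cell markers were 536 to 784 on drug, 757 to 913 on model and 513 to 667 on control arrays, with all model arrays above all control arrays. The summed signal of 9 of 11 macrophage markers was 941 to 1842 on drug, 1104 to 2370 on model and 636 to 1253 on control arrays, and that of 5 of 7 neutrophil markers was 140 to 1473, 451 to 2068 and 113 to 339 in the same order. For 11 of 11 T and natural killer cell markers the sums were 186 to 260 on drug, 171 to 307 on model and 116 to 247 on control arrays, and for 4 of 7 B and plasma cell markers 109 to 492, 180 to 919 and 114 to 200. Model array 2 had the highest sum of the mitotic genes, of the endothelial, of the stellate cell, of the macrophage, of the T and natural killer cell and of the B and plasma cell markers. It did not for the other lists. Neutrophil markers were highest on model array 1 (2068, against 451 on model array 2), as were hepatocyte markers. Erythroid markers were highest on control array 3 (2862 against 1093) and bile duct markers on control array 2 (147 against 118). No marker was listed at 0, and the part of these cells in the signals of the cell cycle genes was not tested.

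**Figure D4:**
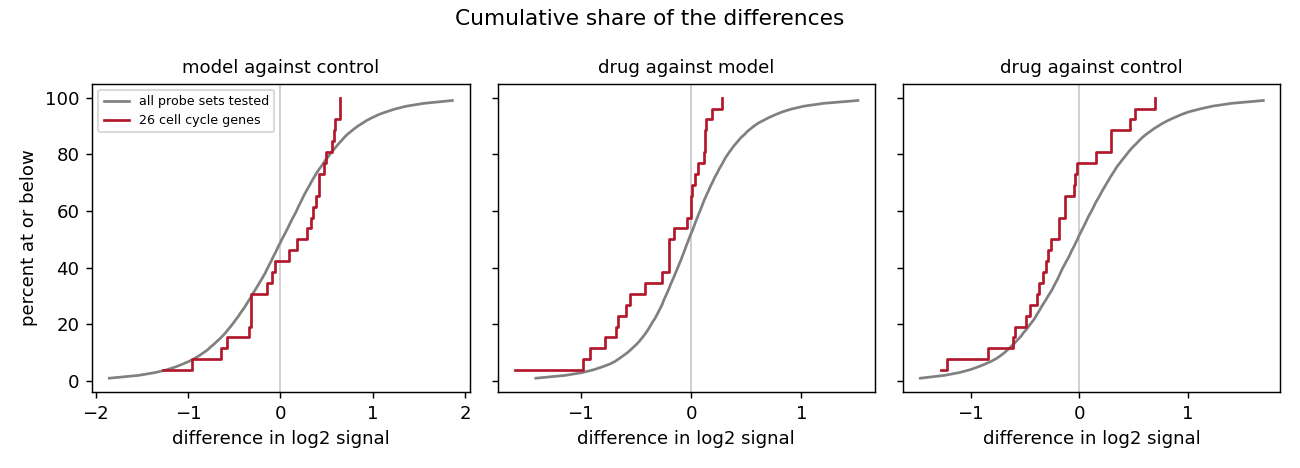
Cumulative share (vertical axis, percent of genes or probe sets at or below) of the difference in log2 signal (horizontal axis) for the 26 tested genes and for all 18625 probe sets, shown for their 1st to 99th percentile. The medians of the genes are 0.23, -0.18 and -0.22, in the order of the panels, against 0.02, -0.02 and -0.02 over all probe sets.

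Genes around the set were read from 5 further lists. Of 37 other replication genes, 26 were tested, and at an unadjusted p under 0.05 stood 3 for model against control, 1 for drug against model, and 1 for drug against control, against 12.1%, 3.28% and 7.22% of all probe sets in that order. Of 50 other mitosis genes, 18 were tested, with 1, 2 and 0 in the same order. Of 7 inhibitors of cyclin-dependent kinases, 5 were tested, with 1, 0 and 1. Of 18 genes for retinoblastoma-family proteins, other E2F factors and the B-MYB and LIN subunits of complexes that bind the CHR motif, 13 were tested, with 1, 0 and 0. Of 20 other cyclin, kinase and checkpoint genes, 14 were tested, with 0, 0 and 1. No gene of these lists passed at an adjusted p under 0.05. Absence of overlap was 1 of the rules by which the genes below were named. Over all probe sets tested, 11.8% had model above control without overlap and 10.9% had it below. The shares were 3.35% and 4.7% for drug against model, and 6.05% and 6.49% for drug against control, in that order.

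Both Cdkn1a and Cdkn1b are brakes on the cycle. Cdkn1a, which encodes the p53 target p21, had signals of 4.42, 5.63 and 5.67 on drug arrays, 5.12, 6.20 and 6.40 on model arrays and 6.13, 7.45 and 6.78 on control arrays. All drug arrays lay below all control arrays, with the model arrays between and overlapping both. The difference in drug against control was -1.55 (SE 0.48, 95% interval -2.62 to -0.47), a 2.92-fold lower signal, with a limma unadjusted p of 0.00924 and an adjusted p of 0.677. Its unadjusted p stayed under 0.05 in 23 of 23 other ways of processing, and the difference was -1.43 without control array 2 and drug array 3. Cdkn1b, for the inhibitor p27, had signals of 7.77, 8.01 and 8.07 on model arrays, against 7.56, 7.07 and 6.94 on control arrays. All model arrays lay above all control arrays, by a difference of 0.76 (SE 0.25, limma adjusted p = 0.384), and the drug arrays, at 7.38 to 7.88, overlapped both. That difference was 0.18 (limma unadjusted p = 0.748) without normalization, 0.23 over the mean of its probe sets and 0.70 without control array 2 and drug array 3.

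Orc2, a subunit of the origin recognition complex, was the replication gene with the lowest unadjusted p. Its signals were 5.67, 6.41 and 6.70 on drug arrays, 6.24, 5.80 and 6.31 on model arrays and 5.13, 4.66 and 5.06 on control arrays. All drug and all model arrays lay above all control arrays. The difference was 1.31 in drug against control (SE 0.32, limma unadjusted p = 0.0020, adjusted p = 0.676) and 1.17 in model against control (unadjusted p = 0.00413, adjusted p = 0.384), and these comparisons share the control arrays. Without control array 2 and drug array 3 the differences were 0.94 and 1.02. Of the same list, Rpa1, a subunit of the single-strand binding protein RPA, had a difference of -1.08 in model against control (95% interval -2.04 to -0.12), and Prim2, the large subunit of primase, had -1.58 in model against control and 1.58 in drug against model, where its model mean of 1.88 lay under the filter. Gins3, a subunit of the helicase complex, had -0.97 in drug against control without overlap.

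Rbl2, which encodes the retinoblastoma-like protein p130 of resting cells, had signals of 7.06, 7.11 and 7.40 on drug arrays, 7.67, 7.80 and 7.42 on model arrays and 6.94, 7.04 and 7.01 on control arrays. The 3 groups did not overlap, with model highest and control lowest. Of the 13 tested genes of its list, 1 was free of overlap with model above control and 1 with model below. The differences were 0.63 in model against control (95% interval 0.15 to 1.10, limma adjusted p = 0.384), -0.44 in drug against model (adjusted p = 0.998) and 0.19 in drug against control (adjusted p = 0.813), with 0.65, -0.54 and 0.11 for the same comparisons without control array 2 and drug array 3. Without normalization, Rbl2 had 0.078 in model against control (limma unadjusted p = 0.871) and -0.24 in drug against control. The difference in drug against control was 0.085 without drug array 3. E2f6 had -0.58 in model against control, E2f4 had -0.35 for drug against model and -0.20 for drug against control, and Lin9 had 0.40 in drug against model, each without overlap and with intervals that crossed 0. Without model array 3, E2f4 had -0.17 and Lin9 0.25 in drug against model, and without drug array 1 E2f4 had -0.089 in drug against control.

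Among the other mitosis genes, Tacc3, which stabilizes spindle fibres, had signals of 3.01, 3.82 and 3.52 on drug arrays, 4.92, 3.96 and 4.21 on model arrays and 3.70, 3.59 and 3.69 on control arrays. The model arrays lay above all others, by 0.70 against control, and the difference in drug against model was -0.91 (95% interval -1.77 to -0.06, limma adjusted p = 0.998). Without model array 1 the difference against control was 0.42. Zwint, a kinetochore protein, had -0.69 in model against control (95% interval -1.34 to -0.04). Ccnf, for cyclin F, had 1.76 and Nuf2, of the kinetochore, had 1.04 in drug against model, with a model array at 0.93 for Ccnf and the model mean under the filter for Nuf2. Without model array 3, the difference for Ccnf was 0.77. Of the other cyclin and checkpoint genes, Ccng2, for cyclin G2, had -0.94 in drug against control with overlap, Gadd45b, a stress gene, had 1.37 in model against control without overlap, and Chek1, the replication checkpoint kinase, had 0.57 in drug against control without overlap, and 0.35 without control array 1. None of these passed the test over all probe sets.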

How the data were processed

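Each of the 9 arrays measured liver RNA of 1 rat, labelled with biotin by the array maker's protocol per the labels' protocols. The deposited values were linear signal intensities, 1 per probe set and array, made with GCOS 1.2 per the submitters' processing notes, whose settings and scaling are not given in the sources used here. Of 31099 probe sets, 57 controls were left out. Of the other 31042, 20826 had 1 gene symbol in the platform annotation, which can be old, 436 had several and 9780 had none.

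The signals were not on a common scale, so log2 intensities were quantile-normalized, which removes any difference in total RNA. Probe sets with a mean at or above the 40th percentile entered a limma 3.58.1 fit (R 4.3.3) with 1 term per group over all 9 arrays and an intensity trend, two-sided, with Benjamini-Hochberg adjustment over all of them, and the code was tested on simulated data. With 3 arrays a group, the lowest p of an exact permutation test is 0.1, so precision is limited by the number of arrays.

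Differences are given in full for genes of the set, and for at most 4 genes of each further list, with an unadjusted p under 0.05 or without overlap between groups. Values of other genes of the set, and of Xist, Eif2s3y and Hells, were chosen for printing after they were seen. The genes and lists were chosen with earlier results of these data known. Replicates were compared first: no pair of arrays of a group shared more than 1 identical value. Promoters came from RefSeq (GRCr8). Alternatives were other normalizations, an offset, other filters, other variance settings, a replicate block, array weights, a Gapdh ratio term, fits of 2 groups alone, probe sets averaged per gene and arrays left out.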

Additional observations from a re-analysis of the deposited data

How the results depend on the processing

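Over 23 alternatives, 629 of 630 differences of the named genes had the same direction, and the exception was Rbl2 in drug against control, -0.24 without normalization. Part of this was fixed in advance. Other filters and variance settings, the replicate block and fits of 2 groups alone leave a fitted difference unchanged. The genes were also named from these same data, so the count is no support for their differences. None passed the adjusted threshold under any of them (lowest limma adjusted p 0.0802, for Orc2 in drug against control), so the threshold says nothing about their stability. Of 291 values for counts and medians, 231 lay within 1.5 times or 1 SD between replicates (0.19) of the reported one. Without normalization, the median of all probe sets was -0.40 for model against control, 0.062 for drug against model, and -0.36 for drug against control, 1 probe set passed in model against control and 1 in the F test, 186 stood at an unadjusted p under 0.05 for drug against model and 694 for drug against control, the median of the cell cycle genes was -0.089 in model against control and -0.52 in drug against control, and 0 of them stood at an unadjusted p under 0.05 in drug against control. Those 694 were 3.73% of all probe sets tested. Scaling to 1 trimmed mean gave all probe sets a median of 0.16 and the cell cycle genes 0.47 in model against control. Without a filter, 1191 probe sets stood at an unadjusted p under 0.05 in drug against model. Of the cell cycle genes, 1 (Ccna2) did in model against control, against 9.64% of all probe sets, and 0 in drug against control, against 6.3%. The 60th percentile filter left 9 of the genes, with medians of -0.31 in model against control and 0.061 in drug against model. Array weights gave 4 probe sets past the threshold in model against control. At an unadjusted p under 0.05 stood 4031 (21.6%), 1788 (9.6%) and 3856 (20.7%) for model against control, drug against model and drug against control. Of the cell cycle genes, 2 (Cdk4 and Mcm7), 1 (Top2a) and 3 (Cdk4, Cdk2 and Mcm7) did, in the same order. With only the groups compared, 1 probe set passed in drug against model, and no F test exists. In those fits 1 gene of the set (Cdk4) stood at an unadjusted p under 0.05 in model against control, against 16% of all probe sets. In drug against control 0 did, against 6.1%. The Gapdh term gave 1083 probe sets at an unadjusted p under 0.05 in drug against model, and a median of -0.060 of the genes in model against control. With that term 2 of the genes (Mcm3 and Mcm4) stood at an unadjusted p under 0.05 in model against control, against 8.45% of all probe sets. In drug against control 2 (Cdk2 and Mcm3) did, against 8.56%. Without control array 2 and drug array 3, 1296 (6.96%) and 456 (2.45%) probe sets stood at an unadjusted p under 0.05 in model against control and drug against control, with 0 cell cycle genes and a median of 0.057 in the second. The cause of these moves was not tested.

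Replicate numbers are shared between the groups, and 5 of 9 same-numbered pairs of arrays deviated together with a correlation over 0.1 (-0.01 to 0.48). Among arrays numbered 1 the correlation was 0.48 for control with drug, 0.39 for model with drug and 0.20 for control with model. Pairs with different numbers had -0.37 to 0.32. Arrays numbered 1 also had the lowest Gapdh ratio and the highest trimmed mean of the deposited signals in their groups. Whether arrays of the same number share a step of the work was not tested. With the replicate block, 3 probe sets passed in model against control. At an unadjusted p under 0.05 stood 3633 (19.5%), 1082 (5.81%) and 2235 (12%) in model against control, drug against model and drug against control, and 1 cell cycle gene (Cdk4) did in model against control. Leaving out 1 array in turn gave 0 to 1 probe sets past the threshold for model against control, 0 to 1 for drug against model, 0 to 0 for drug against control and 0 to 1 in the F test. At an unadjusted p under 0.05 stood 1157 (without model array 3) to 3259 (without drug array 1), 430 (without model array 2) to 1083 (without drug array 2) and 728 (without drug array 3) to 3752 (without drug array 1) probe sets. The medians of the cell cycle genes were 0.09 to 0.31, -0.40 (without model array 3) to -0.074 and -0.27 to -0.12, and 0 to 1, 0 to 0 and 0 to 2 of them stood at an unadjusted p under 0.05. Of all probe sets, 6.21% to 17.5%, 2.31% to 5.81% and 3.91% to 20.1% did, in the same order. The signal over background limits all values of the mitotic genes.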

Other observations

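Hells, a chromatin remodeller of the replication list, was chosen after its values were seen. Its log2 signals were -0.72, 2.85 and 6.54 on drug arrays, 3.52, 3.37 and 3.48 on model arrays and 3.24, 6.23 and 2.91 on control arrays. Its 2 highest arrays, drug array 3 and control array 2, are those with low Xist and high Eif2s3y. The same 2 arrays had 12.11 and 11.28 for Cyp2c11, a cytochrome P450 gene of the liver that is transcribed mainly in male rats, against 2.87 to 5.22 on the other 7 arrays.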
